A study of Mus musculus with 8 samples.

Results

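The genes described here are 8 genes of the cholesterol pathway that are known targets of SREBP2: Hmgcs1, Idi1, Fdps, Fdft1, Sqle, Lss and Cyp51, which encode enzymes of sterol synthesis, and Insig1, which encodes a sterol-regulated brake on SREBP2. They were taken by name, as rows of the count files of whole mouse kidney, with earlier results of these data known. Of the 8 genes, 7 had a row among the 37583 gene identifiers of the files, and all 7 passed the filter on low counts. Hmgcs1, the first committed enzyme of the pathway, had no matching identifier and was not analysed here.

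The study compared 4 libraries labelled knockout, from kidneys of Six2Cre+TFAP2Afl/flTFAP2Bfl/WT mice, with 4 libraries from control littermates labelled WT. The knockout genotype combines a Cre recombinase driven by Six2, a gene of nephron progenitors, with a floxed Tfap2a on both chromosomes and a floxed Tfap2b on 1. The labels do not give the age or sex of the animals, whether the controls carried floxed alleles or Cre, or whether each library came from a separate animal, so each p-value reflects library-to-library spread only, some of which may be technical. Whole kidney also holds cells without a Six2 history. In bulk tissue, fewer cells of a type and less RNA per cell cannot be told apart.

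Cholesterol is built from acetyl units through mevalonate, isoprenoid diphosphates, squalene and lanosterol. When sterols in the endoplasmic reticulum fall, SCAP escorts SREBP2 to the Golgi, where proteases release its active part, which raises transcription of nearly all enzymes of the pathway and of genes for lipoprotein uptake. When sterols are plentiful, INSIG proteins hold SCAP and SREBP2 back. In the kidney, tubule cells both make cholesterol and take it up from lipoproteins.

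Gene counts per library totalled 13871861 to 15763526 in knockout and 14721847 to 16629301 in wildtype libraries. Values are CPM (gene counts divided by library size and scaled to a common total), with library sizes adjusted by the TMM method, and differences are knockout minus wildtype on the log2 scale. The targeted genes gave no lower counts under the knockout label. Tfap2a was at 3.64 to 5.81 CPM in libraries labelled knockout and 2.78 to 5.31 CPM in libraries labelled wildtype, a difference of 0.26 (SE 0.24). Tfap2b was at 58.0 to 103 CPM in libraries labelled knockout and 51.8 to 100.4 CPM in libraries labelled wildtype, a difference of 0.03 (SE 0.22). Every direction below therefore rests on the labels alone, and a count over a whole gene also covers exons that the deletion may leave. Nephron markers were present in every library, with Umod of the thick limb at 4110 to 5006 CPM in knockout and 3562 to 4236 CPM in wildtype libraries. Single libraries stood apart on other grounds. Summed over the 11 adrenal cortex markers, all counted in at least 1 library, knockout replicate 2 had 1082 CPM and wildtype replicate 1 had 1074 CPM, against 96.8 to 137.7 CPM in the remaining knockout and 99.6 to 120.5 CPM in the remaining wildtype libraries. Summed over the 5 adrenal medulla markers, the same libraries had 147.9 and 194.3 CPM, against at most 0.57 CPM elsewhere. The clock gene Arntl was at 24.3 CPM in knockout replicate 4 and 20.4 CPM in wildtype replicate 4 and at most 6.76 CPM elsewhere. The chaperone gene Hspa1a was at 69.5 CPM in knockout replicate 2 and 156 CPM in knockout replicate 4, and at most 11.9 CPM elsewhere.

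Across the kidney transcriptome, no gene passed the quasi-likelihood test of edgeR at an adjusted p of 0.05 among 14433 tested genes (0% called), and none of the 7 sterol genes passed (lowest adjusted p = 0.957). Before adjustment 578 genes, 4% of those tested, had p under 0.05, 2.17% higher and 1.84% lower in knockout libraries. DESeq2, run without the filter on the 24618 genes with a count, called 4 genes with 715 at an unadjusted p under 0.05. Run on the 14433 filtered genes, limma-voom called 0 with 586. The 715 thus comes from a larger set of genes than the 578 and the 586. None of the 7 sterol genes was among the calls of any tool. Of the 7 sterol genes 1 had an unadjusted p under 0.05, Fdft1, which was higher, and 0 were lower. For none of the 7 were the groups apart, while they were for 1.97% of all tested genes, 1.03% with knockout higher and 0.942% with knockout lower. Differences were positive for 3 genes and negative for 4, beside 7405 positive and 7028 negative over all tested genes. Their median was -0.03, beside a median of 0.0061 over all tested genes.

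The isoprenoid enzymes come first in the pathway. Idi1 (ENSMUSG00000058258, chromosome 13, 8885501 to 8892451, forward strand, GRCm38, GENCODE M21) encodes the isomerase that interconverts the isoprenoid building blocks. It had 0.89, 1.08, 2.30 and 1.94 CPM in knockout replicates 1 to 4, against 0.88, 1.63, 2.34 and 2.65 CPM in wildtype replicates 1 to 4. These are 14 to 31 reads in knockout and 13 to 41 reads in wildtype libraries. The groups overlapped, and the lowest values were those of knockout replicate 1 and wildtype replicate 1. The difference was -0.28 (SE 0.40, 95% interval -1.17 to 0.60; adjusted p = 0.957 by edgeR). When single libraries were left out the difference ran from -0.53 (without knockout replicate 3) to -0.07 (without wildtype replicate 4), and with the adrenal cortex list as a term it was -0.15. Counting error alone gives a coefficient of variation of 19.6% at this depth, and the 8 libraries varied by 40.8%.

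Fdps (ENSMUSG00000059743, chromosome 3, 89093588 to 89101959, reverse strand) encodes farnesyl diphosphate synthase, whose product feeds sterols, dolichol and protein prenylation. It had 13.3, 11.5, 5.71 and 11.8 CPM in knockout replicates 1 to 4, against 9.25, 8.08, 7.65 and 8.66 CPM in wildtype replicates 1 to 4. Of the knockout libraries, replicates 1, 2 and 4 lay above every wildtype library and replicate 3 lay below all of them. The mean was 10.6 ± 3.33 CPM in knockout and 8.41 ± 0.70 CPM in wildtype libraries (SD, n = 4 each). The difference was 0.34 (SE 0.23, 95% interval -0.17 to 0.84; adjusted p = 0.957 by edgeR), and it was 0.54 without knockout replicate 3, 0.21 without knockout replicate 1 and 0.18 without knockout replicates 2 and 4, where Hspa1a was highest.

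Fdft1 (ENSMUSG00000021273, chromosome 14, 63145150 to 63179578, reverse strand) encodes squalene synthase, which commits farnesyl diphosphate to sterols. It had 22.9, 23.7, 16.3 and 19.8 CPM in knockout replicates 1 to 4, against 16.6, 17.9, 15.5 and 16.1 CPM in wildtype replicates 1 to 4. Again knockout replicates 1, 2 and 4 lay above every wildtype library, and knockout replicate 3 lay among the wildtype values. The mean was 20.7 ± 3.40 CPM in knockout and 16.6 ± 1.00 CPM in wildtype libraries (SD, n = 4 each). The difference was 0.32 (SE 0.13, 95% interval 0.02 to 0.62), with an unadjusted p of 0.0362 and an edgeR adjusted p of 0.957. It was 0.25 without knockout replicate 2 and wildtype replicate 1, the libraries with adrenal transcripts, and its adjusted p was 0.388 to 1 when each library was left out in turn with edgeR.

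The counts of these 3 genes are uncertain in level. In GENCODE M21, transcripts of 4 other genes matched Idi1, of 6 matched Fdps and of 2 matched Fdft1 over at least 200 bases at 90% identity or more. These counts include genes that overlap the gene itself, namely Gm48574 for Idi1, Gm43738 for Fdps and Ctsb for Fdft1, and not only copies elsewhere. Reads that fit several places equally well were set aside before counting. Gm13502, for example, matched Idi1 over 684 bases at 100% identity and was itself at 0.13 to 0.45 CPM in knockout and 0.07 to 0.44 CPM in wildtype libraries. Fdft1 also overlaps Ctsb, a lysosomal protease gene on the other strand, which shared 774 bases and was at 682.5 to 739.1 CPM in knockout and 586.4 to 712.7 CPM in wildtype libraries. Strand was not used in counting, so reads in the shared bases could not be told apart. Sqle, Insig1, Lss and Cyp51 had no such match to another gene's transcript. Cyp51 and Akap9 lie on opposite strands at overlapping positions, and so do Lss and the antisense gene 4930483K19Rik.

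Squalene is turned into lanosterol by the next enzymes. Sqle (ENSMUSG00000022351, chromosome 15, 59315077 to 59331192, forward strand) encodes squalene epoxidase. The enzyme adds the oxygen that later starts ring closure. Sqle had 119, 106, 99.96 and 129 CPM in knockout replicates 1 to 4, against 107, 127, 107 and 124 CPM in wildtype replicates 1 to 4. Knockout libraries held both the highest and the lowest value. The mean was 114 ± 13.1 CPM in knockout and 116 ± 10.4 CPM in wildtype libraries (SD, n = 4 each), and the difference was -0.03 (SE 0.11, 95% interval -0.27 to 0.21; adjusted p = 0.981 by edgeR). With no scaling beyond library totals it was 0.0044, and it was also above 0 without knockout replicate 3 (0.024) or wildtype replicate 2 (0.012).

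Lss (ENSMUSG00000033105, chromosome 10, 76531588 to 76557138, forward strand) encodes lanosterol synthase, which closes the sterol rings. It had 24.4, 30.5, 25.7 and 33.3 CPM in knockout replicates 1 to 4, against 28.4, 32.1, 26.7 and 30.1 CPM in wildtype replicates 1 to 4. The groups overlapped, with the wildtype values inside the range of the knockout values. The difference was -0.04 (SE 0.12, 95% interval -0.31 to 0.23; adjusted p = 0.975 by edgeR). It was 0.025 without knockout replicate 1, 0.0021 without knockout replicate 3 and 0.0027 without wildtype replicate 2, and lay at -0.23 without knockout replicates 2 and 4 and at -0.11 without knockout replicate 4 and wildtype replicate 4.

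Cyp51 (ENSMUSG00000001467, chromosome 5, 4081145 to 4104746, reverse strand) encodes lanosterol 14-alpha-demethylase, the first enzyme to act on lanosterol. It had 633, 526, 641 and 540.2 CPM in knockout replicates 1 to 4, against 666, 580.2, 701 and 732 CPM in wildtype replicates 1 to 4. The highest 3 values were wildtype and the lowest pair knockout, and the groups overlapped through wildtype replicate 2. The mean was 585 ± 60.2 CPM in knockout and 669.9 ± 65.6 CPM in wildtype libraries (SD, n = 4 each). The difference was -0.20 (SE 0.12, 95% interval -0.45 to 0.06; adjusted p = 0.957 by edgeR), and it was -0.07 when the pair richest in Hspa1a, knockout replicates 2 and 4, was left out, and -0.11 without knockout replicate 4 and wildtype replicate 4, where Arntl was highest. At 8083 to 11336 reads per library, counting error gives a coefficient of variation of 1.02%, and the libraries varied by 11.8%.

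Insig1 (ENSMUSG00000045294, chromosome 5, 28071363 to 28078662, forward strand) is both a target of SREBP2 and its inhibitor. It had 34.1, 42.0, 27.3 and 55.0 CPM in knockout replicates 1 to 4, against 40.3, 43.5, 30.4 and 36.4 CPM in wildtype replicates 1 to 4. Knockout replicate 4 was the highest library and knockout replicate 3 the lowest, with the wildtype libraries between them. The mean was 39.6 ± 11.9 CPM in knockout and 37.7 ± 5.64 CPM in wildtype libraries (SD, n = 4 each), and the difference was 0.07 (SE 0.20, 95% interval -0.37 to 0.52; adjusted p = 0.975 by edgeR). It turned to -0.12 without knockout replicate 4, which also had the most Hspa1a and Arntl, and to -0.017 without wildtype replicate 3.

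**Figure D1:**
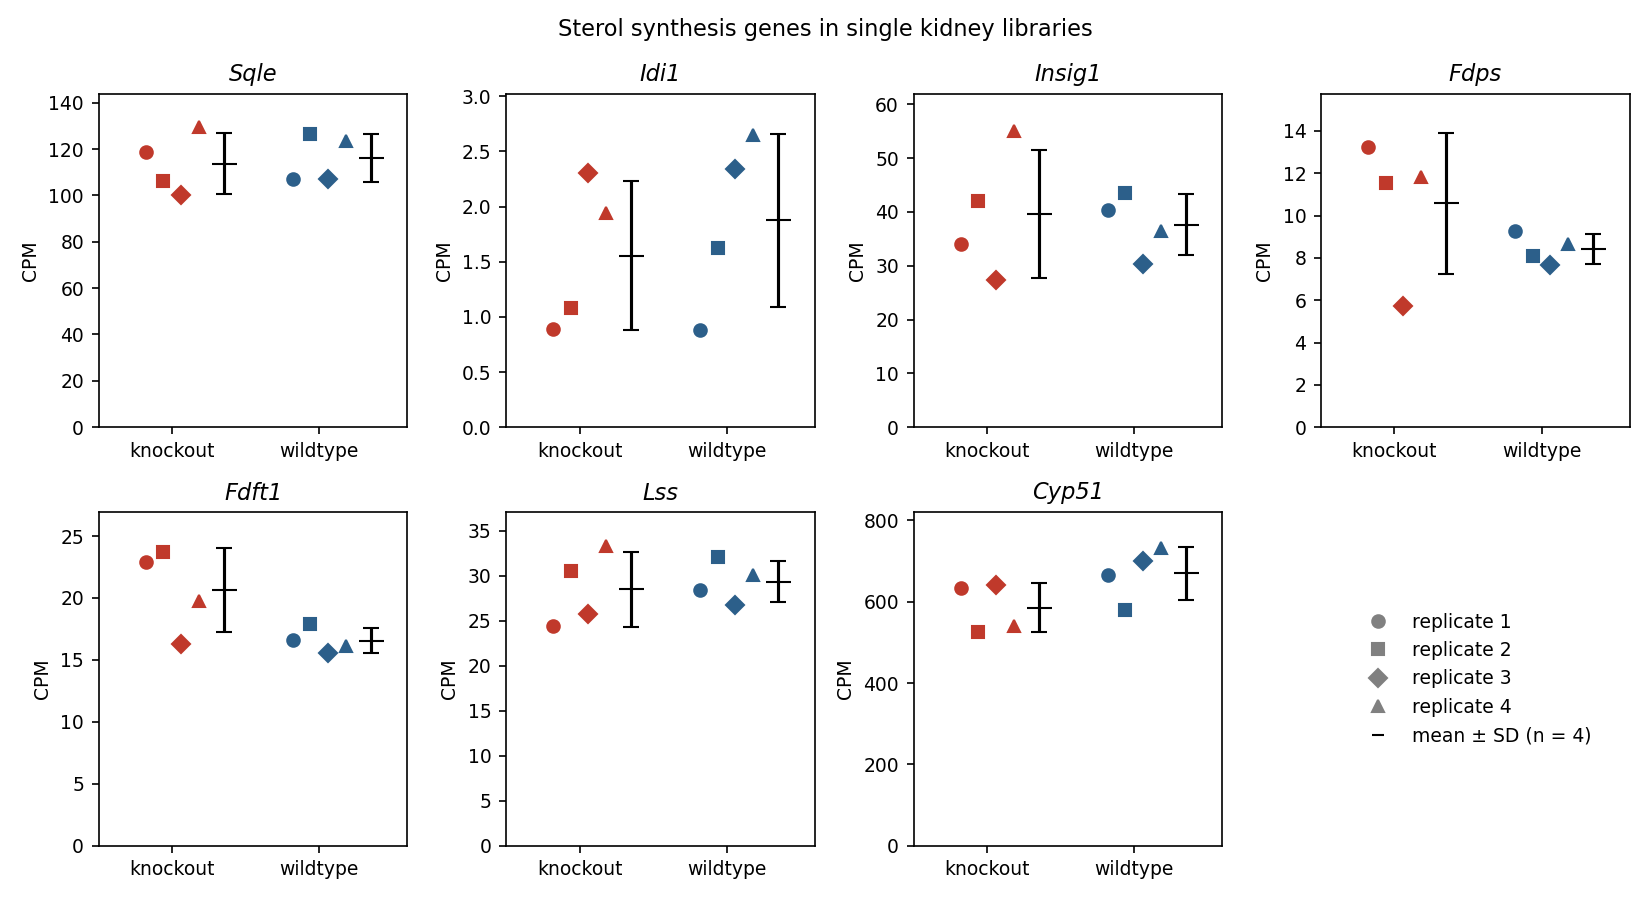
CPM of the 7 sterol genes in each library, with knockout libraries in red and wildtype libraries in blue; the marker shape gives the replicate number, and bars are mean ± SD of 4 libraries. The groups overlapped for every gene, and knockout replicate 3 was the lowest library for Sqle, Insig1 and Fdps.

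Set on a scale per length, the levels of the 7 genes spanned a wide range. Mean CPM per kilobase of the longest APPRIS principal transcript, the main annotated isoform, was 159.6 for Cyp51 (133.9 to 186.3 over the 8 libraries) and 41.6 for Sqle (36.2 to 46.9). Insig1 followed at 14.3 CPM per kilobase (10.1 to 20.4). Fdps at 6.87 (4.13 to 9.59), Lss at 6.19 (5.23 to 7.13) and Fdft1 at 5.03 (4.20 to 6.42) CPM per kilobase had overlapping ranges and no firm order, and per kilobase of all exons their order was Fdft1 (4.40), Lss (2.68) and Fdps (2.26). Idi1 was lowest at 0.57 CPM per kilobase (0.29 to 0.87). Cyp51, Sqle, Insig1 and Idi1 did not overlap with any other of the 7 genes on this scale. Lengths came from GENCODE M21 and not from the annotation used for counting. For Idi1, Fdps and Fdft1, reads that fit near copies equally well were set aside, so the lowest place of Idi1 is uncertain too.

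The libraries that were high for these genes came from both genotypes. In the order of the 8 libraries, knockout replicate 4 was highest for Insig1, Lss and Sqle, and wildtype replicate 2 was second highest for the same 3 genes. Knockout replicate 3 was lowest for Sqle, Insig1 and Fdps. Cyp51 and Idi1 were highest in wildtype replicate 4 and next highest in wildtype replicate 3. In the libraries with adrenal transcripts, knockout replicate 2 was highest for Fdft1 and lowest for Cyp51, and wildtype replicate 1 was lowest for Idi1.

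**Figure D2:**
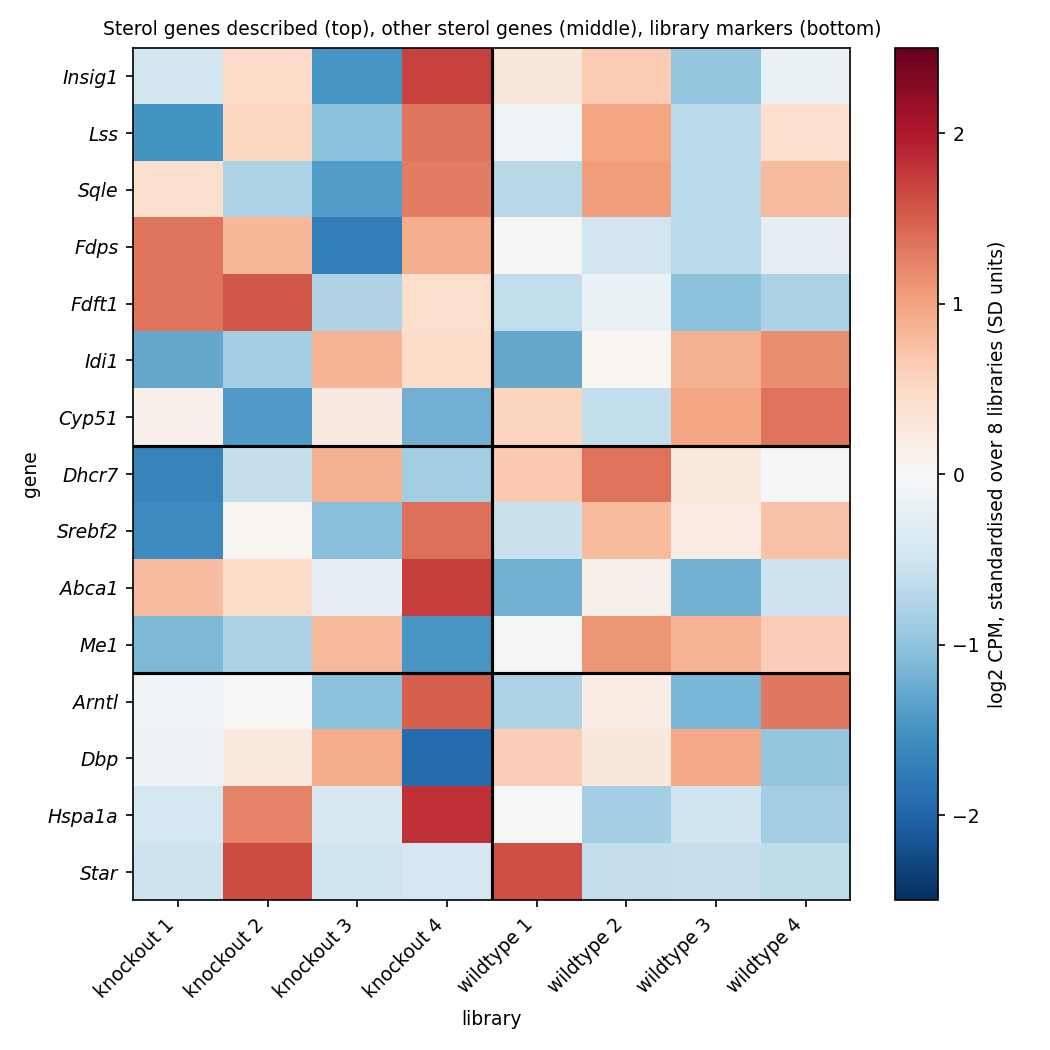
Standardised log2 CPM (SD units over 8 libraries, red above and blue below the mean of the gene) for the 7 sterol genes at the top, other sterol genes in the middle and library markers at the bottom; the vertical line parts the 4 knockout libraries on the left from the 4 wildtype libraries. Knockout replicate 4 stood at 1.70 SD for Insig1 and knockout replicate 3 at -1.47 SD.

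Over the 8 libraries the genes did not move as a single block. The median Pearson r of log2 CPM over the 21 pairs was 0.18, beside -0.0010 over all pairs of tested genes; 13 of 21 pairs, 61.9%, were positive, beside 49.9% of all pairs, and 5 pairs, 23.8%, reached 0.5, beside 15.2% of all pairs. The genes of a pair share libraries, depth and scaling. No pair passed after Benjamini-Hochberg adjustment over the 21 pairs by an exact permutation test. The labels give no batch within which the values could be recomputed.

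Insig1 and Lss had the highest pair value, with r = 0.85 (exact permutation p = 0.00784, adjusted 0.154) and Spearman rho = 0.90 (exact permutation p = 0.00456, adjusted 0.0760) over 8 libraries. Without the 2 libraries farthest from the median of Insig1, r was 0.76. Fdps and Fdft1 followed, with r = 0.81 (exact permutation p = 0.0146, adjusted 0.154) and rho = 0.76 (exact permutation p = 0.0368, adjusted 0.257), and r was 0.83 without the farthest 2 libraries. Within the knockout libraries r of this pair was 0.89, and within the wildtype libraries 0.16 (n = 4 each). Sqle and Insig1 had r = 0.67 (exact permutation p = 0.0718, adjusted 0.277) and rho = 0.62 (exact permutation p = 0.115, adjusted 0.393). That relation rested on the 2 farthest libraries, since r was 0.18 without them.

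The r of Cyp51 was below 0 with 5 of the other 6 genes, and none of these pairs passed after adjustment. It was -0.19 with Sqle, -0.45 with Fdps and -0.51 with Lss (exact permutation p = 0.648, 0.258 and 0.198, adjusted 0.725, 0.452 and 0.415), with rho of -0.095, -0.48 and -0.48 (exact permutation p = 0.840, 0.243 and 0.243, adjusted 0.882, 0.393 and 0.393). Without the 2 libraries farthest from the median of the other gene, r was 0.12 with Sqle, -0.74 with Fdps and -0.45 with Lss. It was -0.72 with Fdft1 (exact permutation p = 0.0484, adjusted 0.277), with rho = -0.88 (exact permutation p = 0.00724, adjusted 0.0760), and r was -0.92 without the 2 libraries farthest from the median of Fdft1. Centred on group means, r of Cyp51 with Fdft1 was weaker, at -0.53. Within the knockout libraries it was -0.47 and within the wildtype libraries -0.90 (n = 4 each). With Insig1 the r of Cyp51 was -0.65 (exact permutation p = 0.0801, adjusted 0.277) and rho -0.62 (exact permutation p = 0.115, adjusted 0.393). That r was -0.66 without the 2 libraries farthest from the median of Insig1. The r of Cyp51 with Idi1 was 0.34 (exact permutation p = 0.390, adjusted 0.586) and rho 0.48 (exact permutation p = 0.243, adjusted 0.393). Without the 2 libraries farthest from the median of Idi1, r was 0.84. Idi1 had an r of -0.62 with Fdps (exact permutation p = 0.105, adjusted 0.277), with rho = -0.57 (exact permutation p = 0.151, adjusted 0.393) and r = -0.56 without the farthest 2 libraries. The median r over the 21 pairs was 0.012 without knockout replicate 3 and 0.086 without knockout replicate 4.

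**Figure D3:**
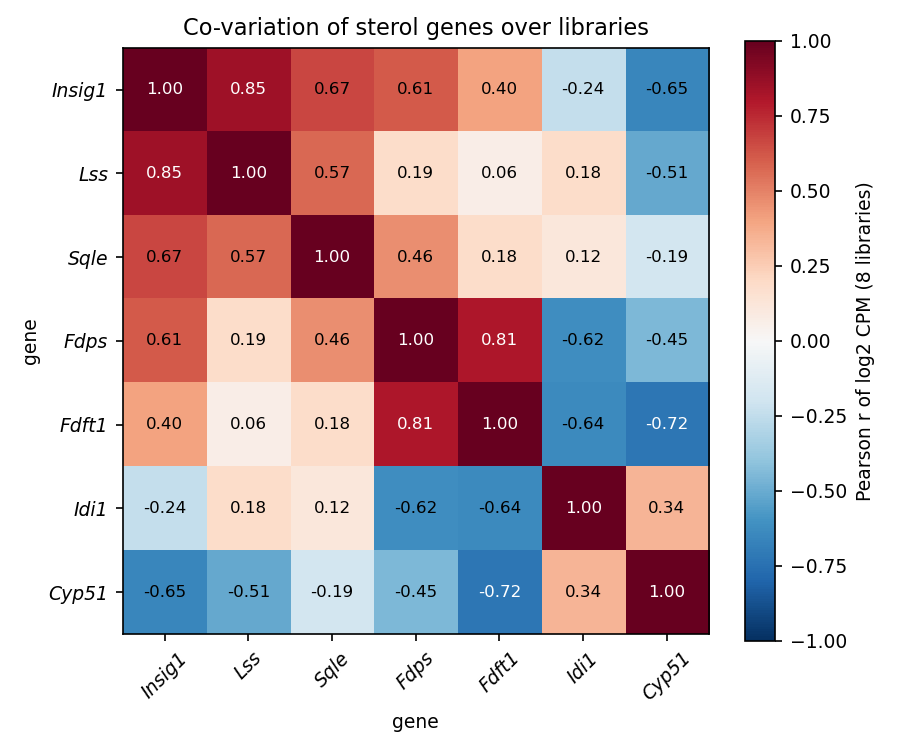
Pearson r of log2 CPM over 8 libraries for each pair of the 7 sterol genes, from blue (-1) to red (1). Insig1 with Lss (0.85) and Fdps with Fdft1 (0.81) gave the highest values, and Fdft1 with Cyp51 (-0.72) the lowest.

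The windows before the start sites of Insig1, Lss and Cyp51 are shown because Insig1 and Lss had the highest r of any of the 21 pairs and Cyp51 had an r below 0 with each. The set of RefSeq start sites used here (GRCm38.p6) held 5 of the 8 genes (Hmgcs1, Idi1, Insig1, Lss and Cyp51). Sqle, Fdps and Fdft1 were missing from this set, which does not mean that RefSeq lacks them. Each sequence holds the 250 bases before the RefSeq start, 5′ to 3′ on the gene's strand. Capitals mark matches, on either strand, to CACNCCAC (the core of the sterol element bound by SREBPs), CCAAT (the NF-Y box, a common partner site) and CACGTG (an E-box, which SREBPs and clock factors can bind). Insig1 lies at chr5:28071162-28071411 on the forward strand, Lss at chr10:76531355-76531604 on the forward strand and Cyp51 at chr5:4104698-4104947 on the reverse strand.
Insig1: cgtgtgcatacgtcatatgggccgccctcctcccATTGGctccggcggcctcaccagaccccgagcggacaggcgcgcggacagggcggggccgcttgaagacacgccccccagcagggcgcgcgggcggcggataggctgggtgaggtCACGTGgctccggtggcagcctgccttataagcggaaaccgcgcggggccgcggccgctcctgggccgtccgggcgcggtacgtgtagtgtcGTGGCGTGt
Lss: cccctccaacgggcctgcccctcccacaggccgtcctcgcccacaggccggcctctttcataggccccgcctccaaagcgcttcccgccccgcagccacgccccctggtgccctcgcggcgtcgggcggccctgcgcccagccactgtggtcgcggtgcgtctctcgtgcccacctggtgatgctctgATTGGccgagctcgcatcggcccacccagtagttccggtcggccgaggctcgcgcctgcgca
Cyp51: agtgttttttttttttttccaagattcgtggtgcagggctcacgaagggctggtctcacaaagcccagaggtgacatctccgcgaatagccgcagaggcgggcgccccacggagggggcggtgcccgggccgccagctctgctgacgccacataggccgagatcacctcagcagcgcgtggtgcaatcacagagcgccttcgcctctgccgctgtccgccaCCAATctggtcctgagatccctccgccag

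Each of these windows holds 1 NF-Y box, at positions -216 to -212 for Insig1, -62 to -58 for Lss and -29 to -25 for Cyp51, counted back from the base before the start site (-1). Idi1 holds 2, and CCAAT or its complement occurs in 33.8% of the 32851 RefSeq windows of this length. Only the Insig1 window of the 5 has the E-box (positions -101 to -96), found in 6.02% of windows. The core sterol element matched in Insig1 (positions -9 to -2, other strand) and Hmgcs1, against 5.29% of windows. The longer TCACNCCAC, which contains that core, matched in Hmgcs1 alone of the 5, against 1.05%. RefSeq and GENCODE M21 starts differ. The windows of Insig1, Lss, Cyp51 and Idi1 reach into the GENCODE genes, which begin at 28071363, 76531588, 4104746 and 8885501. By those positions the core element of Insig1, the NF-Y box of Cyp51 and the NF-Y boxes of Idi1 lie inside the gene. The AP-2 element GCCNNNGGC, the letters that TFAP2 factors prefer, matched in the windows of Hmgcs1 and Idi1, where it overlaps an NF-Y box, and in 13.7% of all windows. In Idi1 this match too lies inside the GENCODE gene. Only these letters were searched, so a sterol element of other letters would be missed in any window, that of Cyp51 included. A match is a match of letters only, and no binding was measured.

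The other genes of sterol biology gave the wider frame. A set of 8 lists held 72 further genes, of which 71 were tested. Of these, 32 differences were positive and 39 negative, beside 7405 positive and 7028 negative over all tested genes. Their median was -0.04, and none of the 71 passed at an edgeR adjusted p of 0.05. The counts of directions within single lists were not tested. Before adjustment 4 genes were higher and 1 lower with p under 0.05, which is 7.04% of the 71, beside 4% of all tested genes. Groups were apart for 3 genes, all higher in knockout libraries, which is 4.23% of the 71, beside 1.97%.

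Of the 5 genes of the mevalonate list 3 were positive, including the kinase gene Pmvk at 0.38 (SE 0.28; 0.21 without wildtype replicate 3 and 0.60 without knockout replicate 3). Of the 9 genes of the lanosterol to cholesterol list 4 were positive. Dhcr7, the last reductase of the pathway, differed by -0.40 (SE 0.20; -0.62 without knockout replicate 3 and -0.27 without knockout replicate 1).

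Genes that sense sterols and process SREBP2 came next. Srebf2, which encodes SREBP2, was at 75.3 to 91.8 CPM in knockout and 80.7 to 88.3 CPM in wildtype libraries, a difference of -0.05 (SE 0.09, 95% interval -0.26 to 0.15) that was -0.11 without knockout replicate 4, -0.013 without knockout replicate 1 and -0.16 without knockout replicates 2 and 4. Of the 11 genes of this list 8 were negative.

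Of the 11 genes of uptake and intracellular sterol transport 6 were positive and 5 negative. Lrp2, the endocytic receptor megalin, was the most abundant of the 11 and differed by -0.11 (SE 0.15; -0.21 without wildtype replicate 1 and -0.026 without knockout replicate 2). Scarb1, the HDL receptor, which steroid-making cells use for cholesterol uptake, was at 91.7 CPM in knockout replicate 2 and 63.7 CPM in wildtype replicate 1, the libraries with adrenal transcripts, and at 14.0 to 16.7 CPM in the other knockout and 10.96 to 17.0 CPM in the other wildtype libraries. Scarb1 and the genes Mylip and Cyp46a1 below are named after their values were seen.

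Genes of sterol efflux and of SREBP1 were also read. Abca1, the cholesterol exporter and an LXR target, had 55.6, 52.1, 45.04 and 68.2 CPM in knockout replicates 1 to 4, against 36.4, 48.7, 36.7 and 42.2 CPM in wildtype replicates 1 to 4, and only knockout replicate 3 reached into the wildtype range. Its difference was 0.43 (SE 0.14; unadjusted p = 0.0125, edgeR adjusted p = 0.957). Mylip, an LXR target that encodes a ubiquitin ligase, differed by 0.57 (SE 0.25) with 129 CPM in knockout replicate 4, and Lpcat3, the most abundant gene of the efflux list, by -0.04 (SE 0.11). In the fatty acid list 8 of 12 genes were positive, and the malic enzyme gene Me1, which supplies NADPH, differed by -0.38 (SE 0.16; unadjusted p = 0.0388; adjusted p = 0.957 by edgeR) and by -0.22 without knockout replicates 2 and 4. In the list of non-sterol branches 9 of 10 genes were negative, with a median of -0.08, beside 7028 negative of all 14433 tested genes. The exception was Fnta, a subunit of protein farnesyltransferase, at 83.4 to 91.3 CPM in knockout and 70.4 to 79.4 CPM in wildtype libraries. Of the sterol hydroxylases, Cyp27a1 differed by 0.22 (SE 0.10; 0.15 without wildtype replicate 4) and Cyp7b1 by -0.00055 (SE 0.15). Cyp46a1 was at 2.67 to 3.19 CPM in knockout and 2.19 to 2.65 CPM in wildtype libraries, without overlap. Its reads numbered 39 to 50 in knockout and 35 to 42 in wildtype libraries and overlapped, its counting error (15.8%) exceeded its coefficient of variation over libraries (11.7%), and its unadjusted p by edgeR was 0.209. Cyp7a1, the bile acid enzyme of liver, had 0 counts in all 8 libraries, which allows up to 0.223 CPM in the library of smallest effective size.

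**Figure D4:**
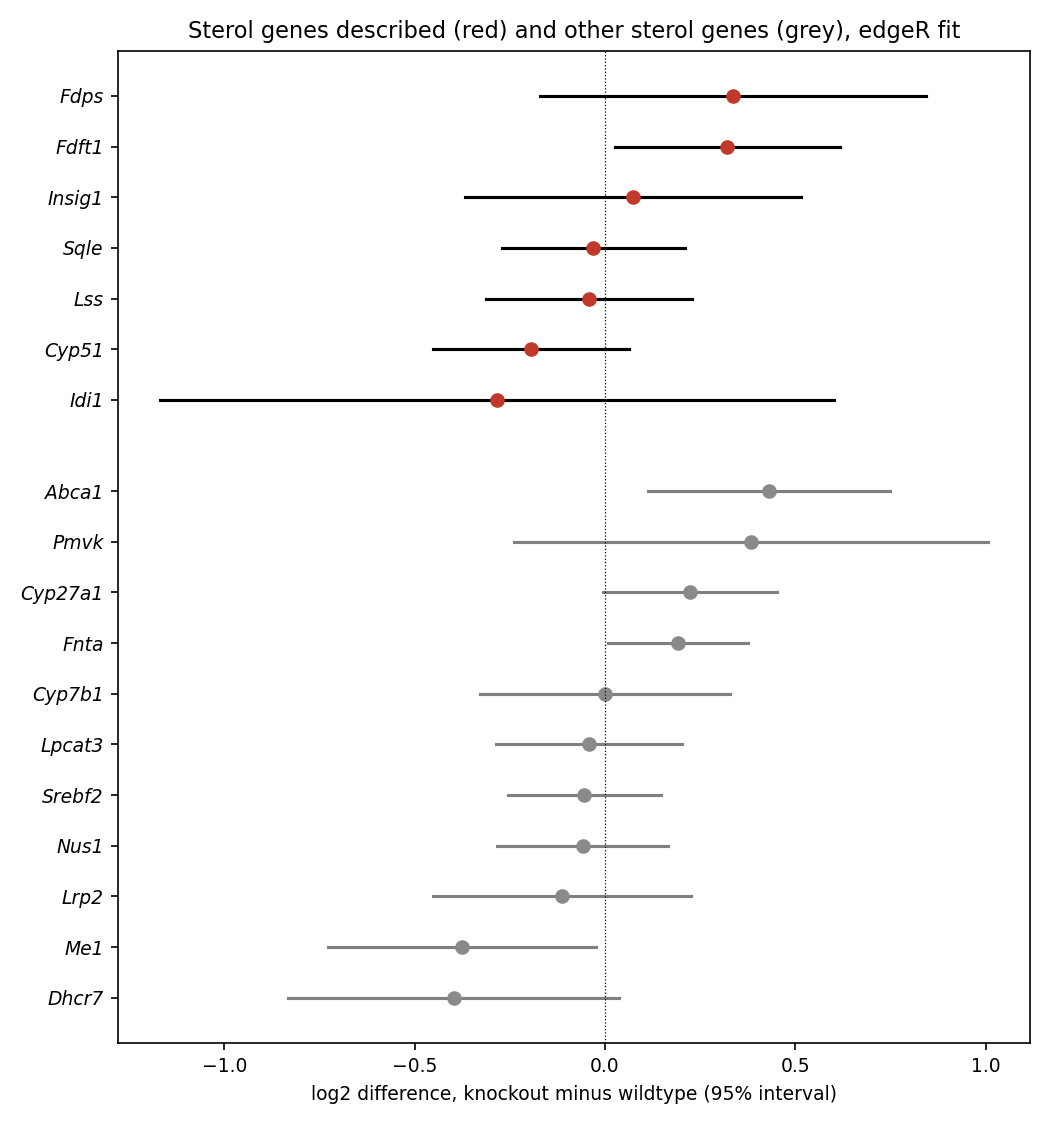
Log2 difference, knockout minus wildtype, with its 95% interval from the edgeR fit, for the 7 sterol genes (red, top) and other named sterol genes (grey, bottom), each set in order of size. Of the 7 genes, the interval of Fdft1 alone lay above 0, and none passed after adjustment over all tested genes.

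The genes outside the sterol lists whose pattern was most like the mean of the 7 standardised genes were ranked by Pearson r over 8 libraries, with no test because they were picked for it. That mean does not stand for each of the 7 genes: r with the mean of the others was 0.79 for Sqle, 0.69 for Insig1, 0.54 for Lss and 0.38 for Fdps, but 0.035 for Fdft1, -0.26 for Idi1 and -0.60 for Cyp51. The 10 highest had r of 0.93 to 0.97, led by Palm3, Tbx2, Ankle2, Rtl6 and Inhbb and followed by Gm21981, Igf2bp2, Pgam1, Npnt and Gm16589. Palm3 had 14.0, 14.2, 7.79 and 25.4 CPM in knockout replicates 1 to 4, against 12.9, 22.2, 10.6 and 20.4 CPM in wildtype replicates 1 to 4. Npnt, which encodes the matrix protein nephronectin, had 165, 201, 123 and 267 CPM in knockout replicates 1 to 4, against 120.3, 188, 141 and 228 CPM in wildtype replicates 1 to 4. Both were highest in knockout replicate 4; Palm3 was lowest in knockout replicate 3 and Npnt in wildtype replicate 1.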

How the data were processed

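RNA of whole mouse kidney was sequenced in 8 libraries, 4 per group, grouped by title. The deposited values are raw HTSeq counts, with a separate file for each library. Per the submitters' processing notes, STAR, HTSeq and edgeR were used with build mm9; their versions, and the gene models counted, are not given in these sources. Counting ignored strand, per the deposited file names, although the kit was directional per the labels' protocols. Lines that name no gene entered neither the library sizes nor the tests: 11.6% to 16.2% of the reads in each file lay outside genes, 2.05% to 2.31% were ambiguous and 15.8% to 20.9% were not unique.

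Identifiers were matched to symbols of GENCODE M21 (32860 of 37583); positions are those of GRCm38 for each identifier, and nothing was converted from mm9. The test was edgeR 4.0.16 quasi-likelihood in R 4.3.3, two-sided, with TMM, robust dispersion and filterByExpr (minimum count 10, minimum total count 15), genotype as the only term, and Benjamini-Hochberg adjustment over 14433 genes. Standard errors and 95% intervals come from the same fit. Correlations used log2 CPM (prior count 2) and all 40320 pairings of 8 libraries. Near copies were found with megablast among M21 transcripts. Coefficients of variation from counting and the floor of 3 counts cover counting error only. Chi-square per gene between libraries was 10.7 to 86.2, above that of copies of 1 library.

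The genes and lists were chosen with earlier results of these data known. Named are the 7 genes, from each sterol list the gene of lowest p and the most abundant gene, with Srebf2 and Dhcr7, from the marker lists the 2 most abundant genes and Star, Hsd3b1, Arntl, Dbp, Hspa1a and Lcn2, and the 10 genes most alike; markers that touched no result are not described, and some sterol genes that the rule picks are not reported here, although the counts per list include them. Alternatives were other scaling, no filter, DESeq2 1.42.0, limma-voom (limma 3.58.1), a replicate block, an adrenal term and fits without libraries; the fit without both libraries of highest Arntl was added after seeing the data. Figures used matplotlib 3.10.9.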

Additional observations from a re-analysis of the deposited data

Results flagged for a closer look

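Within groups of 4 libraries, a value was picked out where its gap to the nearest other library exceeded Dixon's 95% critical share of the group's range. Chance alone gives this in about 5% of groups when genes are picked blind. Here 15 values were picked out in 94 groups of named genes. That count cannot be set against 5%, because markers were chosen with earlier results known and the groups share libraries. None of the 7 sterol genes was among those picked out. Among the other sterol genes named, Cyp27a1 was at 44.5 CPM in wildtype replicate 4, against 55.3 to 56.8 CPM in the other wildtype libraries. The adrenal gene Star, which moves cholesterol into mitochondria, was at 349.6 CPM in knockout replicate 2, against 5.01 to 6.15 CPM in the other knockout libraries, and at 335 CPM in wildtype replicate 1, against 4.00 to 4.49 CPM. Hsd3b1, a steroid enzyme, was at 225 CPM in knockout replicate 2 and 245 CPM in wildtype replicate 1. Of the chromaffin genes, Chga reached 49.1 CPM in knockout replicate 2 and 68.6 CPM in wildtype replicate 1, and Chgb reached 68.4 CPM in knockout replicate 2 and 89.7 CPM in wildtype replicate 1. The red cell gene Hbb-bs was at 4772 CPM in knockout replicate 1 and 818 CPM in wildtype replicate 1, and Hbb-bt at 1561 CPM in knockout replicate 1 and 203 CPM in wildtype replicate 1. The clock gene Arntl was at 24.3 CPM in knockout replicate 4, and Tef at 294 CPM in wildtype replicate 4, against 493 to 526 CPM in the other wildtype libraries. The part of adrenal tissue, blood or time of day in the sterol values was not tested beyond the fits without the adrenal, heat-shock or high Arntl libraries and the fit with the adrenal cortex list as a term.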

How the results depend on the processing

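None of the 7 sterol genes was called under any alternative run (smallest adjusted p = 0.357), and 116 of 126 alternative values kept their direction. Over all genes 0 were called by edgeR and 4 by DESeq2, which ran without the filter on low counts. With edgeR, 1 was called without the heat-shock libraries (knockout replicates 2 and 4) and 0 to 2 when single libraries were left out. The labels do not say that equal replicate numbers mark a shared litter or day. Deviations of same-numbered libraries correlated at 0.226, -0.23, 0.282 and 0.293, so not every pair deviated together, and the libraries were not treated as paired; 4 of 8 libraries correlated best with their own number; with the replicate block 0 genes and 0 sterol genes were called, and 1075 genes, against 578, had an unadjusted p under 0.05. The median log2 difference of the 7 genes ran from -0.12 to 0.025 and their median pairwise r from 0.012 to 0.24 when single libraries were left out. That r was 0.25 centred on group means, -0.037 without the heat-shock libraries and -0.0049 without knockout replicate 4 and wildtype replicate 4. Directions turned for values near 0. Sqle was 0.0044 with no scaling and -0.098 to 0.024 leaving out single libraries, and Lss was -0.12 to 0.025. Insig1 was -0.29 without the heat-shock libraries, -0.14 without the high Arntl libraries and -0.12 to 0.21 leaving out single libraries. Lpcat3 ran from -0.11 to 0.039 and Cyp7b1 from -0.14 to 0.10. Cyp7b1 was 0.0015 with DESeq2 size factors, 0.030 with no scaling, 0.0003 by DESeq2, 0.033 without the heat-shock libraries, 0.0031 with the adrenal term and 0.065 without the high Arntl libraries. The cause was not tested. Idi1 had 13 to 41 reads per library, the fewest of the 7 genes.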
